A study of Homo sapiens with 4 samples.

Results

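CXCL1, CXCL14, CSF1, IL1A, CCR4 and AIM2 are 6 genes of inflammatory mediators, and 10 of the 29302 chromatin regions in the deposited table were assigned to them. The members were selected on the read densities and calls of these same 2 ChIP libraries, so their own values are given as a description and not tested. All regions of a member symbol were taken, together with all regions within 500 kb of its gene, which made 83 regions in 6 windows. T98G is an established human glioblastoma cell line. The series held 4 samples of it, namely ChIP and input from cells carrying the empty vector, and ChIP and input from cells overexpressing LGP2, with 1 library of each kind. The labels give no other allele, agent or time. Their treatment field names LGP2 overexpression for every sample, the vector samples included, so the groups follow the titles and the genotype field. Neither the antibody of the LGP2 library nor whether the cells were 1 clone is given in the sources used here, and in the study the vector pair is filed with the ChIP-seq of crotonylated lysine. Only the 2 ChIP libraries had values, and the inputs were not analysed here.

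LGP2, encoded by DHX58, is a helicase related to RIG-I and MDA5 and takes part in the recognition of viral RNA. Chemokines are small secreted proteins that direct the migration of leukocytes through receptors on their surface, while cytokines such as interleukin-1 alpha and CSF1 act on the activation and growth of immune cells. Inflammasome sensors such as AIM2 detect foreign or misplaced nucleic acid and lead to the release of mature interleukin-1. In glioma, myeloid cells recruited by such signals form a large part of the tumor mass.

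Each value was a normalized read density, which could be traced back to whole reads per window, the window being inferred as 2 kb and 1 read having been added to each library. Below, the reads of a region are those of this read window, which is wider than the 250 to 475 bp of the member regions. They are not reads of the printed coordinates alone. The median over all regions was 3 reads in the LGP2 library and 3 reads in the vector library, so each value rested on very few reads. How deeply either library was sequenced is unknown. Exact Poisson 95% intervals are given for reads and exact Clopper-Pearson 95% intervals for shares. They cover counting error only, and reads counted without molecular identifiers need not come from separate molecules. With 1 library in each group no difference has a replicate check. The log2 ratio is LGP2 over vector, a region past 2-fold has a ratio of at least 1 in either direction, and the median log2 ratio of all regions was 0.15. DHX58 had 1 region, called in the vector library only, with 6 LGP2 reads and 3 vector reads. ChIP reads there do not check the overexpression, and no expression was measured.

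The promoters are shown first, because the regions near these genes mostly lay outside them. The bases directly before the transcript start were taken from RefSeq (GRCh38.p14), in which 5 of the 6 members were matched (not CSF1) and 8 of the 9 chemokine genes of the cluster around CXCL1 (not PF4). Capitals in the CXCL1 promoter mark matches to the NF-kB motif, written as GGG, any 5 bases, CC and searched on both strands. The 250 bases before the CXCL1 start lay at chr4:73869143-73869392 (plus strand).
CXCL1: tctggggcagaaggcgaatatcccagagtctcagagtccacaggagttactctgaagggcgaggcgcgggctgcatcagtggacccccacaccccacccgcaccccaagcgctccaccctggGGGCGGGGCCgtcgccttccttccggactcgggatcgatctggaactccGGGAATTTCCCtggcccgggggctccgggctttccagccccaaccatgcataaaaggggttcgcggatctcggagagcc
One of its matches, GGGAATTTCC, began 79 bases before the start, and the overlapping match on the other strand made a run of 11 bases. The NF-kB motif was found in 54.4% of the 34788 distinct RefSeq promoters of this length, whereas this 10-base string was in 50 of them, or 0.144%. The same string stood in the promoters of 4 neighbours of CXCL1, of which CXCL2 and CXCL3 are its closest relatives. It began 79 bases before the start in CXCL3, 78 in CXCL2, 91 in CXCL5 and 90 in CXCL6. The 60 bases from 110 to 51 before the start are set side by side to compare it, with the run of 11 bases in capitals, at chr4:73869283-73869342 (plus strand), chr4:74038740-74038799 (minus strand), chr4:74099246-74099305 (minus strand), chr4:73998728-73998787 (minus strand) and chr4:73836568-73836627 (plus strand).
CXCL1: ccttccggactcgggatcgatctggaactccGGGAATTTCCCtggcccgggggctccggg
CXCL3: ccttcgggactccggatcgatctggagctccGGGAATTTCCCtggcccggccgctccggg
CXCL2: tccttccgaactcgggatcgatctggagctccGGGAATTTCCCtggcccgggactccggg
CXCL5: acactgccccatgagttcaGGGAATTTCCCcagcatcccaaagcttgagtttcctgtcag
CXCL6: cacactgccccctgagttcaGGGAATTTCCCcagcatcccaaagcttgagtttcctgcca
Without gaps, the 250 bases of CXCL3 were 64.8% identical to those of CXCL1, against 46.8% for CXCL2, 32% for CXCL6 and 30.4% for CXCL5. CXCL8, the classical chemokine of neutrophils at the other end of the cluster, did not hold the string, and in its stretch from 150 to 91 bases before the start, at chr4:73740419-73740478 (plus strand), the capitals mark a match to the AP-1 motif, then another NF-kB match.
CXCL8: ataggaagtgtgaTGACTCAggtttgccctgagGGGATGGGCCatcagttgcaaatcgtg

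For the other members, capitals mark AP-1 matches (TGANTCA, in 6.59% of promoters), C/EBP matches (TTNCNNAA, in 33.2%) and, in AIM2, a match to the interferon response motif, written as TTTC, any 2 bases, TTTC and found in 3.02%, each searched on both strands. Each stretch is shown because it holds at least 2 such matches. CXCL14 is shown from 120 to 61 bases before the start, at chr5:135579052-135579111 (minus strand). IL1A is shown from 60 bases before to the last base before the start, at chr2:112784494-112784553 (minus strand). CCR4 is shown from 210 to 151 bases, at chr3:32951434-32951493 (plus strand), and AIM2 from 200 to 141 bases, at chr1:159076907-159076966 (minus strand).
CXCL14: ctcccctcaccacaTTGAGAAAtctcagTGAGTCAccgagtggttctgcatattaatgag
IL1A: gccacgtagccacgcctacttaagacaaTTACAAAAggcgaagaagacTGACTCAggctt
CCR4: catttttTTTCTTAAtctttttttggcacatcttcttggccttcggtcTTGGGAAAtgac
AIM2: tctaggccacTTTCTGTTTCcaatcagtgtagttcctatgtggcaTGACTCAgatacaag
AP-1 matches stood in CXCL14, IL1A and AIM2 and not in the CXCL1 or CCR4 windows. The promoters also differed in CpG dinucleotides: 25 in the 250 bases of CXCL14 and 18 in CXCL1, but 7 in IL1A, 5 in CCR4 and 2 in AIM2, with a median of 11 over all promoters. No region overlapped a RefSeq promoter window of the 5 matched members, a window being 250 bases before to 50 after the start. Of all 29302 regions, 222 (0.758%) overlapped any such window. Measured from the promoter, the nearest region was 1.93 kb away for IL1A, 7.56 kb for CCR4, 14.6 kb for CXCL14, 16.6 kb for CXCL1 and 65.2 kb for AIM2. The AIM2 sequence, its CpG count and its 65.2 kb refer to a start inside the gene, which differs from the starts of the AIM2 transcripts in the table. For IL1A, RefSeq has another start, with 8 CpG dinucleotides and the same region 1.84 kb away. The IL1A sequence and values above are those of the more upstream start. A motif match is a description of letters, and its bearing on the reads was not tested.

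Of the 10 member regions, 7 were called in the vector library only and 3 in the LGP2 library only. The backgrounds were 44.9% of all regions for vector only and 54.9% for LGP2 only. At least 2-fold lower signal with LGP2 was seen in 5 of 10, where the background was 25.2%, and at least 2-fold higher signal in 3 of 10, where it was 29.5%. The remaining 2 were within 2-fold. A call in a single library does not mean that the other was empty, and at 4 of the 10 regions both libraries had reads. Since the rule used these values, nothing is read from these counts. Among all regions past 2-fold, 53.9% were higher with LGP2 as deposited, 48% with unscaled reads and 43.7% after centring on the median, so the overall balance of the directions depended on the scaling. The log2 ratios of the member regions ran from −3.32 to 3.60 with a median of −1.35.

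**Figure D1:**
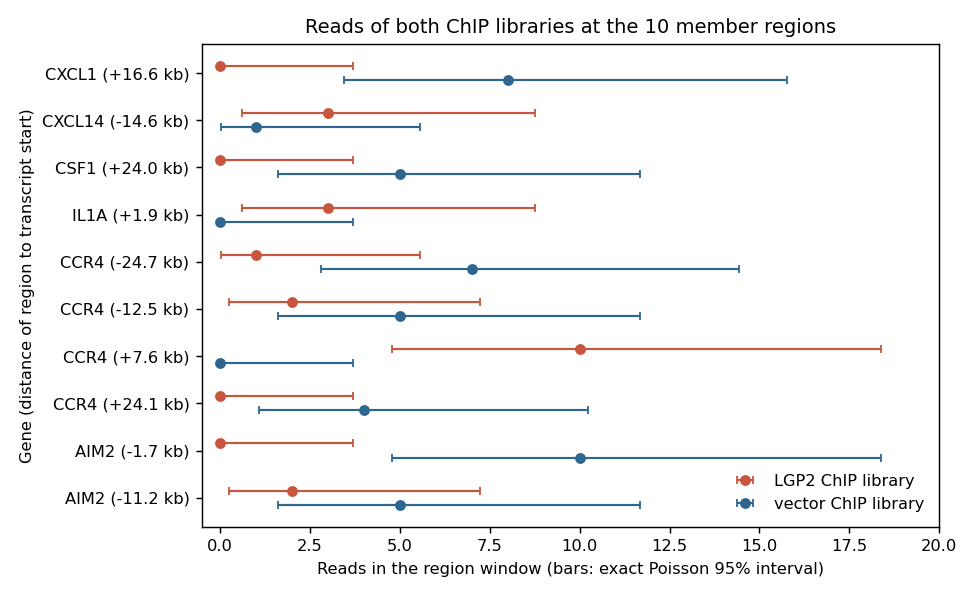
Reads of the LGP2 (red) and vector (blue) ChIP libraries in the window of each of the 10 member regions, with exact Poisson 95% intervals as bars and the distance from region to transcript start beside each gene. The bars of both libraries are apart at the CCR4 region with 10 LGP2 reads and 0 vector reads and at the AIM2 region with 0 and 10, and overlap at the other 8.

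Width was not used by the rule. Position entered it through the gene symbol that the table gives each region, so the distances below depend on that assignment. The widths of the 10 regions were 250 to 475 bp with a median of 283 bp, against 307 bp for all regions. By the table's annotation, 7 were intergenic, against 33.2% of all regions, but 4 of these 7 belonged to CCR4 alone. Of the others, 2 were in promoters as the table defines them, against 20.1%, and 1 was in an intron, against 42.0%. The distance to the transcript start was 1706 to 24687 bp with a median of 13540 bp, close to the median of 13200 bp over all regions, and 7 of 10 lay over 10 kb away. Thus only the IL1A region and 1 AIM2 region were within 3 kb of a start. At 6 of 10 a library had 0 reads, which held for 27.0% of all regions, but this is again a value that the rule used.

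**Figure D2:**
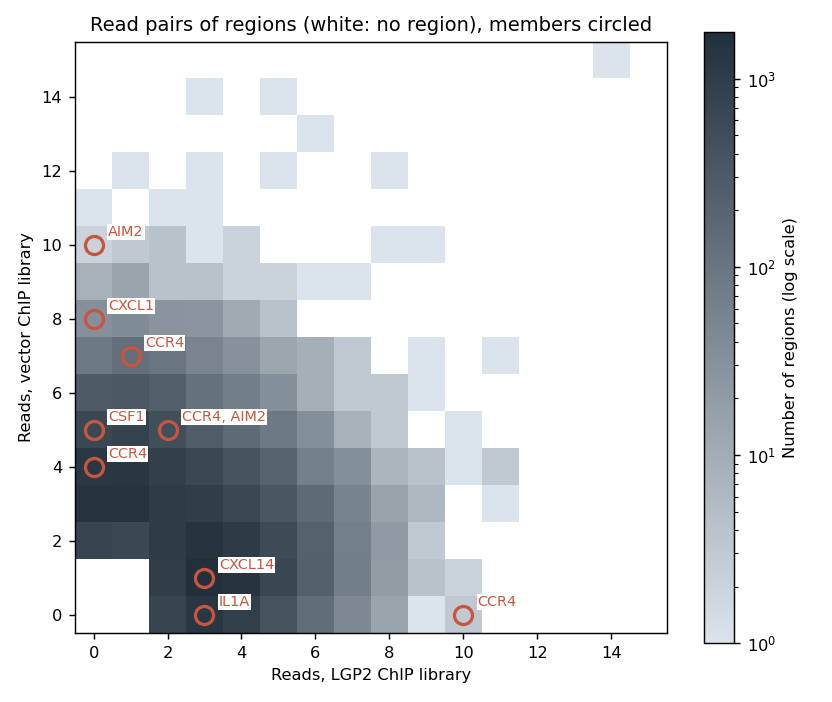
Number of regions (colour, log scale) at each pair of reads in the LGP2 library (x axis) and the vector library (y axis), with the pairs of the member regions circled; 1 region with more than 15 reads lies outside the plot. The CXCL14 and IL1A pairs sit where regions are most frequent, while the CCR4 pair of 10 and 0 and the AIM2 pair of 0 and 10 sit at the edge.

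Among the ligands, CXCL1, a chemokine that draws neutrophils and acts through CXCR2, had the clearest difference toward the vector. Its only region lay at chr4:73885959-73886433, intergenic and 16567 bp downstream of the start of the gene (chr4:73869393-73871308, plus strand). In the read window of this region 0 reads were found with LGP2 (0 to 3.69) and 8 with the vector (3.45 to 15.8). The vector reads were 2.67 times the floor of 3 reads set for a count of 0, which is not a lower bound on the fold. The counting intervals of the libraries overlapped. The same pair of reads occurred in 31 other regions, all called in the vector library only. Of these, the ones in promoters of coding genes belonged to COL20A1, DEFB115, IL17RE and INPP5K. At least 8 vector reads were present in 185 of the 13147 vector-only regions (1.41%), and in 43 of these the LGP2 library had 0 reads. So the CXCL1 pair was uncommon but not singular, which is a description of values that the rule used.

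The chemokine cluster around CXCL1 held a single region. It holds 9 genes, CXCL8, CXCL6, PF4V1, CXCL1, PF4, PPBP, CXCL5, CXCL3 and CXCL2, in 359 kb of chromosome 4 (chr4:73740569-74099195), and the CXCL1 region was the only one inside it. The density of chromosome 4 would place 2.76 regions over this length, which the counting interval of a count of 1 (0.0253 to 5.57) includes. Whether the cluster holds fewer regions than other stretches was not tested. From the CXCL1 region, the next ones were 368 kb away on the CXCL8 side and 245 kb away on the CXCL2 side, whereas the median spacing on this chromosome was 85.0 kb. None of the 9 genes contained a region, which held for 92 of the 111 genes on the gene lists of these pathways, and the nearest one was 14.7 kb from CXCL1 itself and up to 142 kb away, for CXCL8. By distance, the vector-only CXCL1 region was nearest to 7 of the 9 genes. For CXCL3 (92.9 kb) and CXCL2 (32.4 kb) the nearest was the LGP2-only MTHFD2L region, with 2 LGP2 and 2 vector reads. The NF-kB string shared by 5 promoters of the cluster thus had no region over it in either library.

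The whole CXCL1 window held 5 regions, 4.99 per Mb (1.62 to 11.6), where chromosome 4 had 7.69 per Mb. Besides CXCL1 these were ALB with 0 LGP2 and 3 vector reads, and AFP and LINC02499 with 3 and 1 each, together with MTHFD2L. None of these 4 had more than 4 reads in all, and CXCL1 had the most reads of the window.

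CXCL14, a chemokine made mainly by epithelia, had a single LGP2-only region at chr5:135593875-135594124, 14597 bp upstream of its start and in an intron of another gene. The nearest RefSeq gene was SLC25A48, so the assignment to CXCL14 rests on the table. It had 3 LGP2 reads (0.619 to 8.77) and 1 vector read (0.0253 to 5.57), an LGP2-over-vector ratio of 3 with a counting interval of 0.241 to 157. This is the most ordinary of the 10 regions: 1778 others (6.07% of all) had the same pair, and its log2 ratio of 1.13 fell to 0.98, within 2-fold, after centring on the median. In its window the region ranked 10 of 15 by reads. The window was mostly LGP2-only, with 11 against 4 vector-only regions, a vector-only share of 26.7% (7.79% to 55.1%) beside 44.6% for chromosome 5. The neighbours with the most reads were AC011431.1, a pseudogene, with 7 LGP2 and 4 vector reads, and the long noncoding RNA C5orf66 with 5 and 2. The latter total was equalled by another C5orf66 region with 3 and 4 and by AC008406.1 with 1 and 6.

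CSF1 is the macrophage colony-stimulating factor, the ligand of CSF1R that macrophages need to survive. Its region at chr1:109939692-109939941 was intergenic and vector-only, 24036 bp downstream of the start of the transcript in the table and 8.70 kb past the RefSeq end of the gene. In its read window no LGP2 read was found (0 to 3.69) and 5 vector reads (1.62 to 11.7), which is 1.67 times the floor of 3 reads. The intervals overlapped, and 651 other regions (2.22%) had the same pair. Of vector-only regions 27.9% had 5 reads or more. The window around CSF1 was the densest of the 6, with 23 regions or 22.8 per Mb (14.5 to 34.3), beside 10.2 for chromosome 1. This held for each library: 11.9 per Mb (6.16 to 20.8) of LGP2-only regions beside 5.54, and 10.9 (5.45 to 19.5) of vector-only regions beside 4.57. CSF1 ranked only 13 of 23 by reads.

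**Figure D3:**
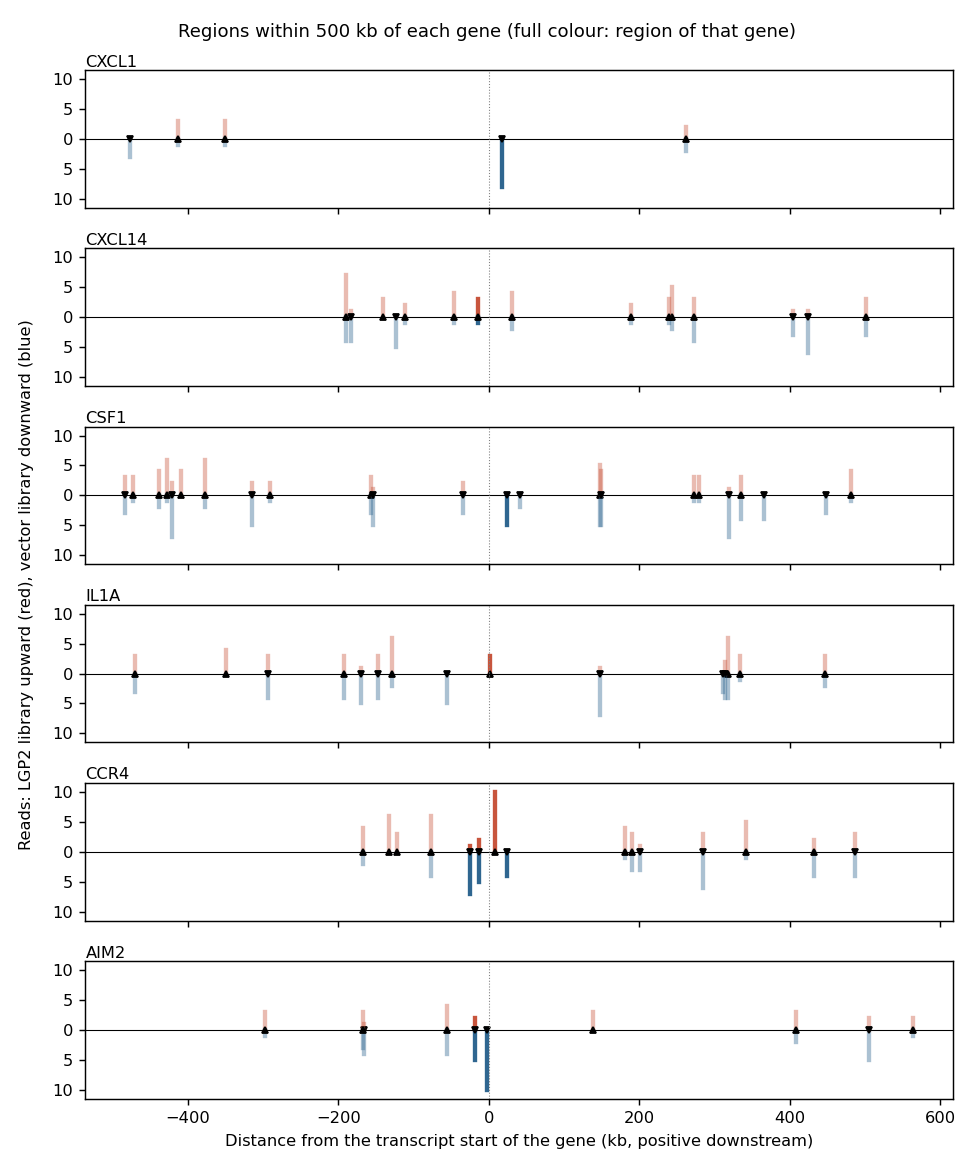
Reads at every region within 500 kb of each of the 6 genes, with LGP2 reads upward (red) and vector reads downward (blue), against the distance from the transcript start in kb; full colour marks regions of the gene itself, and triangles point up for LGP2-only and down for vector-only regions. CXCL1 stands alone near its start with 8 vector reads, CCR4 has 4 regions within 49.4 kb, and the CSF1 window holds 23 regions.

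IL1A encodes interleukin-1 alpha, which signals through IL1R1 and is released by dying cells. Its region at chr2:112782296-112782563 lay inside the gene (chr2:112773925-112784493, minus strand), 1930 bp from the start, and the table counts it as promoter. It was LGP2-only, and its reads were 3 with LGP2 (0.619 to 8.77) and 0 with the vector (0 to 3.69). Both counts are at or under the floor of 3 reads, so no fold is given. The pair was common, with 1271 other regions (4.34%), and 82.2% of LGP2-only regions had 3 reads or more. Within its window IL1A ranked 14 of 15 by reads.

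The IL1A window also covers the interleukin-1 gene cluster, where other family members had more reads. IL37, an anti-inflammatory member, had 6 LGP2 and 2 vector reads 262 bp from its start. At IL36G, an epithelial member, 3 and 4 reads were found at the promoter and 1 and 5 in an intergenic region. IL1F10 had 3 and 4, and IL1RN, the receptor antagonist, 4 and 0 in the 3′ UTR. These 4 genes thus showed no common direction. IL1B, which encodes interleukin-1 beta, had no region of its own, and the nearest one, assigned to AC079753.1 with 0 LGP2 and 5 vector reads, was 3.55 kb away. The pseudogene VINAC1P had the most reads of the window, 6 and 4, followed by IL37 and, with the same total, AC079922.2 with 1 and 7. Of the 15 regions, 8 were LGP2-only and 7 vector-only.

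CCR4, the receptor for CCL17 and CCL22 on helper and regulatory T cells, was the only member with regions called in each library. Its 4 regions, all intergenic, spread over 49.4 kb around the gene (chr3:32951644-32956349, plus strand). The LGP2-only region at chr3:32959203-32959497, 7560 bp downstream of the start, had 10 LGP2 reads (4.80 to 18.4), 3.33 times the floor of 3 reads, and 0 vector reads (0 to 3.69). The other 3 were vector-only and pointed the other way. At chr3:32926606-32926957, 24687 bp upstream, there was 1 LGP2 read (0.0253 to 5.57) and 7 vector reads (2.81 to 14.4), a vector-over-LGP2 ratio of 7 with a counting interval of 0.899 to 315. At chr3:32938812-32939163, 12481 bp upstream, 2 LGP2 reads (0.242 to 7.22) stood against 5 vector reads (1.62 to 11.7), a vector-over-LGP2 ratio of 2.50 (0.409 to 26.3). This region was within 2-fold by its log2 ratio of −0.85. At chr3:32975765-32976035, 24122 bp downstream, 0 LGP2 and 4 vector reads (1.09 to 10.2) were found, the latter 1.33 times the floor. The vector interval overlapped that of the LGP2 library. Summed over the 4 regions, which point in opposite directions, the libraries had 13 LGP2 reads (6.92 to 22.2) and 16 vector reads (9.15 to 26.0).

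The CCR4 region with 10 LGP2 reads was rare. Only 12 of the 16076 LGP2-only regions (0.0746%) had 10 reads or more, 3 of them with no vector read. The same pair was found at 2 other regions, 1 of them at the promoter of ITIH4. The counting intervals of both libraries did not overlap there, which held with LGP2 higher for 0.0137% of all regions, 4 in number. The rule used these reads, so nothing is read from this rarity. A gene with 4 or more regions was less unusual: 1255 of 17169 symbols (7.31%) had as many, while 63.1% had 1. Likewise, 13.1% of all regions had 3 or more others within 50 kb. By RefSeq, the 2 downstream regions are nearest to GLB1, the gene of a lysosomal galactosidase, so that 2 of the 4 regions, both upstream and vector-only, are nearest to CCR4 by either annotation. The neighbours with the most reads were TRIM71, an RNA-binding ubiquitin ligase, with 6 LGP2 and 4 vector reads, and SUSD5 with 3 and 6 (TRIM71 had other regions with 6 and 0 and with 3 and 0).

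AIM2 binds cytosolic double-stranded DNA and recruits PYCARD and caspase-1. Both of its regions were vector-only. The region at chr1:159142213-159142628 lay 1706 bp upstream of the start of the transcript in the table and inside the longer RefSeq gene (chr1:159055051-159147132, minus strand), so its label as promoter depends on the transcript chosen. It had 0 LGP2 reads (0 to 3.69) and 10 vector reads (4.80 to 18.4), the latter 3.33 times the floor of 3 reads. The region at chr1:159158317-159158570, intergenic and 11222 bp upstream of the start of another AIM2 transcript in the table, which begins farther upstream, had 2 LGP2 reads (0.242 to 7.22) and 5 vector reads (1.62 to 11.7), a vector-over-LGP2 ratio of 2.50 (0.409 to 26.3). In sum AIM2 had 2 LGP2 reads (0.242 to 7.22) and 15 vector reads (8.40 to 24.7), which is a description of values that the rule used.

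The AIM2 pair of 0 and 10 reads was found at 1 other region. Of vector-only regions, 20 (0.152%) had 10 reads or more, 3 of them with no LGP2 read. Intervals apart with the vector higher were seen in 12 regions, 0.041% of all. Around it, the window had 10 regions, 9.23 per Mb (4.43 to 17.0), close to the 10.2 of chromosome 1. Among them was IFI16, a related DNA sensor, which had 3 LGP2 and 0 vector reads at a region 1985 bp from its start, the direction opposite to AIM2 but on reads at the floor. Of the other neighbours, CADM3-AS1 had 4 reads in each library. FCER1A, a subunit of the IgE receptor, had 1 and 4 at 1 region and 3 and 3 at another. These lay 4199 and 5868 bp from the start, so their read windows of 2 kb would overlap in part.

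Over all 6 windows, 73 regions belonged to other genes, and their calls and directions did not differ from the backgrounds beyond counting error. Of these 73, 27 were vector-only (37.0%, 26.0% to 49.1%), beside 45.0% of all regions called in a single library. Signal at least 2-fold lower with LGP2 was seen in 15 of them (20.5%, 12.0% to 31.6%) and at least 2-fold higher in 22 (30.1%, 19.9% to 42.0%), and both intervals include the backgrounds of 25.2% and 29.5%. A library at 0 reads was found in 13 (17.8%, 9.84% to 28.5%). More of them were in promoters, 29 of 73 (39.7%, 28.5% to 51.9%), than of all regions (20.1%). Together with the members, the windows held 13.6 regions per Mb (10.8 to 16.8), where all chromosomes had 9.76. The 10 member regions are in these windows by the rule, so nothing is read from this density. With the members, the vector-only share was 41.0% (30.3% to 52.3%). This share turned to 62.1% (18 of 29) when only regions with at least 5 reads in the calling library were kept, and the share of all regions rose to 51.7% with it. Of these 29, 7 were member regions, 6 of them vector-only on reads that the rule used. Without the members, in an alternative chosen after seeing the data, the share was 12 of 22 (54.5%, 32.2% to 75.6%). At the edge of the rule, the farthest region kept was C5orf66-AS1, 492 kb from CXCL14, with 3 reads in each library, and the first left out was UBP1, 502 kb from CCR4, with 5 in each.

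**Figure D4:**
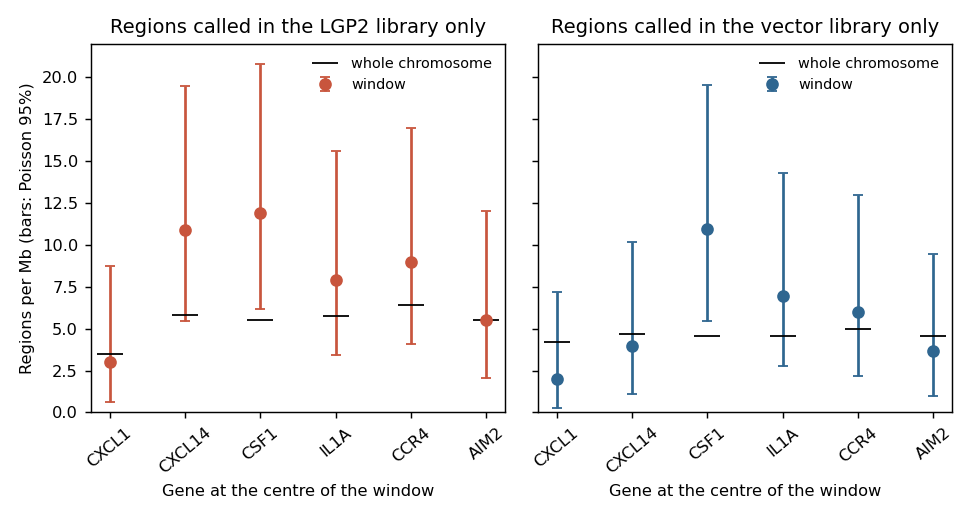
Regions per Mb called in the LGP2 library only (left, red) and in the vector library only (right, blue) within 500 kb of each gene, with Poisson 95% intervals as bars and the mean of the whole chromosome as a black dash. The CSF1 window has 11.9 and 10.9 regions per Mb, with both intervals above the chromosome, while the intervals of the other 5 windows include the mean of their chromosome.

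Beyond the members, 6 lists of 111 genes in all were read, covering the ligands, receptors and sensors of the same pathways. Of these, 38 genes (34.2%) had a region, 53 regions in all. The 32 genes that are not members had 43 regions, of which 30 were LGP2-only (69.8%, 53.9% to 82.8%) and 13 vector-only. At least 2-fold higher were 14 of these 43 (32.6%, 19.1% to 48.5%), where the background was 29.5%. At least 2-fold lower were 4 (9.30%, 2.59% to 22.1%), an interval that lies below the background of 25.2%. The median log2 ratio of the 43 was 0.70 beside 0.15 for all regions. Leaving out the members, which were chosen on such values, itself takes lower regions away, so nothing is read from this low share or this median. With the members, 9 of the 53 regions were at least 2-fold lower and 17 at least 2-fold higher, with a median log2 ratio of 0.16. The counting interval of the LGP2-only share includes the background of 54.9%. Leaving out the members, 7 of 10 of their regions vector-only, raises this share too, so nothing is read from it either. The same limit holds for the share at the minimum below. With at least 5 reads in the calling library, an alternative chosen after seeing the data, 7 LGP2-only and 3 vector-only regions of these genes were left (70% LGP2-only, 34.8% to 93.3%). With the members included, the counts at this minimum were 8 and 9, from 33 and 20.

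**Figure D5:**
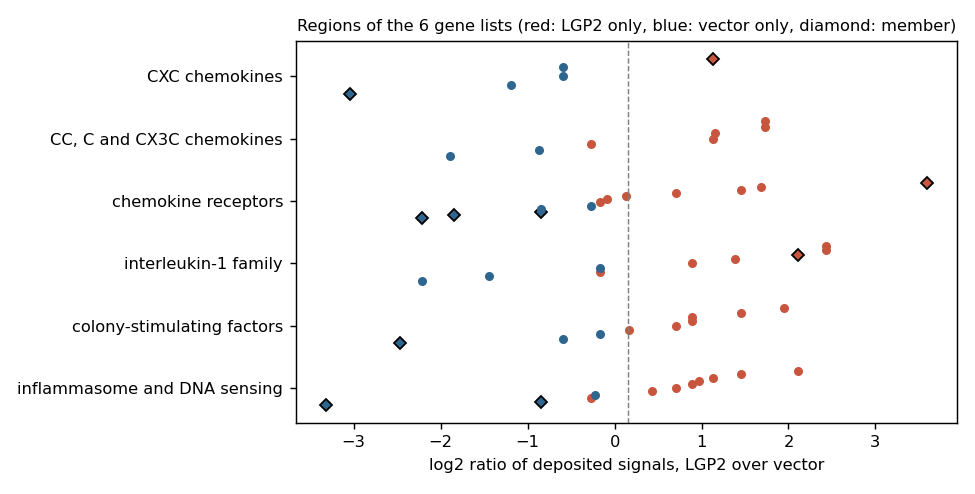
The log2 ratio of the signals, LGP2 over vector, at each of the 53 regions of the 6 gene lists, in red for LGP2-only and blue for vector-only regions, with members as diamonds and the median of all regions (0.15) as a dashed line. The regions of CXCL1, CSF1 and AIM2 lie farthest to the left of their lists, and that of CCR4 with 3.60 farthest to the right.

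Among CXC chemokines, 5 of 17 genes had 1 region each, 1 of them LGP2-only and 4 vector-only. The 3 that are not members were all vector-only: CXCL11, a ligand of CXCR3, and CXCL12, the ligand of CXCR4, had 2 LGP2 and 4 vector reads each, and CXCL13, a chemokine of B cells, had 1 and 4. Of these 5 regions 1 was at least 2-fold higher, that of CXCL14, and 2 were at least 2-fold lower, those of CXCL1 and CXCL13. The CC, C and CX3C chemokines were different in count, with 6 of 27 genes and 5 LGP2-only against 2 vector-only regions, 4 at least 2-fold higher and 1 lower. CCL25, a gut chemokine, and CCL27, a skin chemokine, had 5 LGP2 reads and 1 vector read each near their starts. CCL1 had 5 and 2 at 1 region and 3 and 1 at another, and CCL24, a chemokine of eosinophils, had 2 and 3. The difference between the lists was not tested. CCL17 and CCL22, the ligands of CCR4, had no region, the nearest being 36.6 kb and 86.5 kb away.

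Of 23 chemokine receptor genes 7 had a region, with 7 regions from the LGP2 library alone and 5 from the vector alone, 3 of them at least 2-fold higher and 2 lower, with a median log2 ratio of −0.13. Apart from CCR4, ACKR3, a scavenger of CXCL12, had 3 LGP2-only regions, with 4 LGP2 and 5 vector reads at the highest. CCR3 had 2 and 5, CCRL2 had 3 and 4, and CCR6 had 2 and 3. Both lower regions and 1 of the 3 higher ones were those of CCR4. CXCR2, the receptor of CXCL1, had none, and the nearest region was that of CXCR1, 21.2 kb away, with 4 LGP2 reads and 1 vector read.

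In the interleukin-1 family, 8 of 19 genes had a region, of which 6 were LGP2-only and 3 vector-only, with 4 at least 2-fold higher and 2 lower. Besides the cluster above, IL1RL2, the receptor of the IL-36 proteins, had 4 LGP2 and 2 vector reads at its promoter, and IL18 had 4 and 0. IL1RL1, the receptor of IL-33, pointed the other way with 0 and 4. IL1R1, through which IL1A signals, had no region, with the nearest 6.93 kb away.

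Of the 8 colony-stimulating factor genes 5 had regions, 6 from LGP2 alone and 3 from the vector alone, 2 at least 2-fold higher and 1, that of CSF1, lower. The higher regions were both at CSF2RB, the shared receptor subunit, with 6 LGP2 reads and 1 vector read and with 4 and 1. IL34, the other ligand of CSF1R, had 4 regions, 2 from each library, from 2 LGP2 reads and 1 vector read to 3 and 4. CSF2RA had 4 in each library, and CSF2 had 4 and 2. CSF1R itself had no region, the nearest being 2.24 kb away.

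Inflammasome and DNA sensing genes had regions at 7 of 17, 8 LGP2-only and 3 vector-only. Of the vector-only regions 2 were those of AIM2. The third was at ZBP1, a sensor of Z-form nucleic acid, with 5 LGP2 and 7 vector reads, and ZBP1 had another with 6 and 3. PYCARD, the adaptor of AIM2, had 5 and 4 at its promoter, and CGAS, the DNA sensor that makes cyclic GMP-AMP, had 4 and 2 at its own. NLRP1 had 3 LGP2-only regions, with 4 and 1 and with 2 and 3 at promoter regions and 3 and 1 in an intron, and STING1 had 2 and 1. By the table's symbols, only AIM2 had a region at least 2-fold lower in this list, and 3 regions were at least 2-fold higher. A further vector-only region, assigned to RNU6-647P, lay inside NLRC4 and was also at least 2-fold lower, with 1 LGP2 and 5 vector reads. CASP1, which encodes caspase-1, had no region within 63.8 kb.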

How the data were processed

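ChIP-seq was performed by the authors in T98G cells with the empty vector or with LGP2 overexpression. The authors called regions in each library, sorted them into library-specific and shared sets, annotated them to Ensembl transcripts, and deposited 1 table with the normalized read density of each ChIP library as a signal value. The aligner, region caller and normalization tool were not given in the sources used here. Per the labels the build was mm10, which is of the mouse, but the gene positions in the table are human, and the spans of CXCL1, IL1A and CCR4 equal those of RefSeq GRCh38.p14. The table also holds the authors' own ratio, mean level and p-value columns, which were not used.

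The log2 ratio was computed from both signal columns. Reads were recovered by removing a line in the mean log2 level (intercept 0.105, slope 0.0452). In 100% of regions both libraries then gave whole reads (tolerance 0.001). The recovery was tested on simulated data. The 2 kb window was inferred from the scale of the values. Each signal includes 1 added read, so that a ratio against a library with 0 reads depends on it. Counts beside a count of 0 were set against a floor of 3 reads. These folds are not lower bounds, since the interval of a count of 0 reaches 3.69 reads. No test between groups was possible, because each group had 1 library, and no filter on reads was used. The members, windows and 6 gene lists were chosen with earlier results of these data known. All regions of members were named, with the 2 regions of other genes with the most reads in each window and up to 4 further genes with the most reads in each list. Some regions that this rule would name are not reported here. A few other neighbours and list genes were named after their values were seen, for their function. Regions with the same reads were named by up to 5 promoter genes in alphabetical order, where they were few. Alternatives were 5 added reads, unscaled reads, centring on the median, a minimum of 5 reads, windows of 250 and 1000 kb, and the nearest RefSeq gene. The minimum of 5 reads without the members was added after seeing the data. Motifs were searched in RefSeq promoters, and the sequence of the regions was not analysed here. Python 3.11.15, numpy 2.4.6, pandas 2.3.3, scipy 1.17.1 and matplotlib 3.10.9 were used.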

Additional observations from a re-analysis of the deposited data

How the results depend on the processing

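The directions of all 10 member ratios held with 5 reads added and after centring on the median. The counts past 2-fold did not hold with 5 reads added, where 1 member region was higher and 2 were lower in place of 3 and 5. These were the CCR4 region (1.72), CXCL1 (−1.25) and the AIM2 region with 10 vector reads (−1.45). Over all regions this setting left 954 higher and 443 lower of 8655 and 7388. With at least 5 reads over both libraries, 1 member region was higher and 4 were lower, with 3987 higher and 4046 lower overall. With at least 5 reads in the calling library, the windows had 4.74 regions per Mb and a vector-only share of 62.1%, and the lists 8 LGP2-only and 9 vector-only regions, members included. Without the members, an alternative chosen after seeing the data, the shares at this minimum were 54.5% vector-only in the windows and 70% LGP2-only in the lists. Fewer regions enter at these minimums. Windows of 250 or 1000 kb gave 13.8 and 12.9 regions per Mb, and the nearest RefSeq gene gave 27 LGP2-only and 22 vector-only list regions. Centring moved the CXCL14 region within 2-fold. Unscaled reads took 7 member regions past 2-fold lower in place of 5, and over all regions 9377 in place of 7388. The higher ones were then 3 member regions and 8647 of all. No paired analysis was possible because each group had 1 ChIP library, and leaving out a library was impossible for the same reason. Depth limits every value: a region of 3 to 10 reads allows wide intervals.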
